A study of Mus musculus with 7 samples.

Results

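Cholesterol synthesis and the genes controlled by SREBP2 were examined in the livers of mice fed a high-fat diet (HFD), with and without TET1. The 27 genes were set by name, out of 51426 genes in the count tables. They are 19 enzymes of the sterol and isoprenoid pathway and 8 genes that control the pathway or handle sterols, lipoproteins or retinol. All 27 passed the filter on low counts, along with 14754 genes in all. RNA-seq was done on the liver of 3 wild-type (WT) male mice and 4 male mice with TET1 knocked out in the whole body (TET1 KO), all labelled C57BL/6J and all given HFD for 16 weeks. The study's methods start the diet at 8 weeks of age, and every animal received it, so no chow-fed liver is in the comparison. They describe TET1 KO mice bred from a germline Tet1 mutant strain (B6;129S4-Tet1tm1.1Jae/J) and a floxed strain crossed to β-actin Cre, while the labels of these livers name no allele. The study writes its RNA-seq mice in the notation of the germline mutant strain. TET1 is an enzyme that oxidizes 5-methylcytosine, and the knockout covers the whole body, so changes that start outside the liver cannot be told apart from changes in the liver cells.

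Cholesterol is built from acetyl-CoA in the endoplasmic reticulum and cytosol. The mevalonate steps make isoprenoid units, squalene synthase joins them, squalene is oxidized and closed into lanosterol, and a last series of enzymes trims lanosterol to cholesterol. SREBP2, encoded by Srebf2, is a membrane-bound transcription factor that switches most of these enzymes on together. When sterols are low, the escort protein SCAP carries SREBP to the Golgi, where proteases release it, and when sterols are high, the anchor proteins INSIG1 and INSIG2 hold SCAP and SREBP back. The liver is the main organ that makes cholesterol for export and that turns it into bile acids.

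Sequences upstream of the start sites are shown first, because SREBP2 and its partner NF-Y bind there. Promoter windows came from RefSeq (GRCm38.p6), in which 23 of the 27 genes were found. Fdps, Fdft1, Sqle and Stard4 were not among them. Each line gives the 150 bases before a start site, 5′ to 3′ on the strand of the gene, and the capitals mark matches to TCACNCCAC (a short form of the sterol response element), CCAAT (the NF-Y box, ATTGG on the other strand) or CACGTG (an E-box), searched on both strands. Hmgcs1, Idi1, Cyp51 and Msmo1 are shown as enzymes of successive stages, and Insig1 and Insig2 as the pair that anchors SCAP.
Hmgcs1 (chr13:119690201-119690350, plus strand): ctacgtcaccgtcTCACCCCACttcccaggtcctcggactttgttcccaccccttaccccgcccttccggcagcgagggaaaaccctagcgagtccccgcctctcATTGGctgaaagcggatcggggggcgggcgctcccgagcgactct
Idi1 (chr13:8885456-8885605, plus strand): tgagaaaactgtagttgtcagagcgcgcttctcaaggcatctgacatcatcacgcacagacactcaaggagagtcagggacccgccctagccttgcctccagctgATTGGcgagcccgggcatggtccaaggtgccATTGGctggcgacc
Cyp51 (chr5:4104698-4104847, minus strand): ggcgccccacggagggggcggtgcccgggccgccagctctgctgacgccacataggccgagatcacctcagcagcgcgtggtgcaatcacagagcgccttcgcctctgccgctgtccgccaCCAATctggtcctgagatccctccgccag
Msmo1 (chr8:64733579-64733728, minus strand): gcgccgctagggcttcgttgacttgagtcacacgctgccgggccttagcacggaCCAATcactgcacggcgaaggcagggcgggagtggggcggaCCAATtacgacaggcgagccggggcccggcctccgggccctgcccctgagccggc
Insig1 (chr5:28071262-28071411, plus strand): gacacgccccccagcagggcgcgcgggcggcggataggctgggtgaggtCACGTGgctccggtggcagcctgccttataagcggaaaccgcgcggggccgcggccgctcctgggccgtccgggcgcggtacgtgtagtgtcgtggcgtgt
Insig2 upstream start site (chr1:121332590-121332739, minus strand): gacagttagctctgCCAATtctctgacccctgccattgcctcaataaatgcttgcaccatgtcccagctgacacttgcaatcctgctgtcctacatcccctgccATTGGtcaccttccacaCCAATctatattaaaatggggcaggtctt
Insig2 downstream start site (chr1:121328025-121328174, minus strand): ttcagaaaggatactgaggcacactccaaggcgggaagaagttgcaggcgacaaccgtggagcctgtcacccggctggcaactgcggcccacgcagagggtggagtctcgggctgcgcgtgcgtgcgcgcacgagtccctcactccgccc
Over 250 bases upstream, the short sterol response element was found in 1 of the 30 start sites listed for these genes, that of Hmgcs1, against 1.05% of all 32851 mouse start sites in the table. CCAAT was found at 21 of 30 (70%) against 33.8%, and CACGTG at 6 of 30 (20%) against 6.02%. No 2 matches in the printed windows share a base. In the Hmgcs1 window, the element began 137 bases before the start site and an ATTGG lay 45 bases before it. Idi1 and Msmo1 each held a pair of NF-Y boxes in the printed windows. Insig2 has separate start sites, and the upstream one held 3 NF-Y boxes in its window, at 136, 46 and 29 bases, while the downstream one shown held none. On the minus strand the annotated gene begins at base 121332662, inside that upstream window. The boxes at 46 and 29 bases therefore lie within the annotated gene. A further start site, downstream of both and not printed, held none either. A match in such a window is a description of the letters and not of binding.

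Total counts were between 15005277 and 22746138 per liver, and no 2 libraries of a group agreed within sampling noise. Hepatocyte markers dominated every library, with Alb between 42646 and 63896 CPM. Here CPM is the count scaled to a common library size of 1000000 after TMM scaling, and values are listed in replicate order, WT 1 to 3 and then TET1 KO 1 to 4. Tet1 itself had 1, 4 and 1 counts in WT and 2, 1, 4 and 1 in TET1 KO. These counts are at or near the floor of 3 counts per library in both groups, so they could not check the genotype. Because whole liver was sequenced, fewer cells of a type and less RNA per cell cannot be told apart in any value below.

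Insig2 fell in TET1 KO liver, and it was the only one of the 27 genes called by edgeR's quasi-likelihood test at a Benjamini-Hochberg adjusted p under 0.05, a call lost without WT 2 (adjusted p = 0.110) or KO 2 (0.0568). Most enzymes had a higher mean in TET1 KO, with a median log2 fold change of 0.42 over the 19 enzymes and 0.27 over all 27 genes, beside 0.01 over all tested genes. Without KO 2 these medians were 0.19 and 0.15. The fold change was positive for 16 of 19 enzymes (84.2%), for 21 of 27 genes (77.8%) and for 51.1% of all tested genes. Each log2 fold change below is given ± its SE. None of the 27 was called higher by edgeR (background 0.874% of tested genes) and 1 was called lower (background 1.15%). At an unadjusted p under 0.05, 10 were higher (37%, background 13.6%), 9 of them enzymes, and 3 were lower (11.1%, background 12.7%). DESeq2 called 4 higher (14.8%, background 4.27%), namely Mvk, Lss, Tm7sf2 and Ebp, and Insig2 lower (3.7%, background 4.75%). The groups did not overlap for 4 genes that were higher in TET1 KO (Mvk, Lss, Ebp and Scap, 14.8%, background 11.7%) and 2 that were lower (Insig2 and Mylip, 7.41%, background 10.8%), shares near the background.

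**Figure D1:**
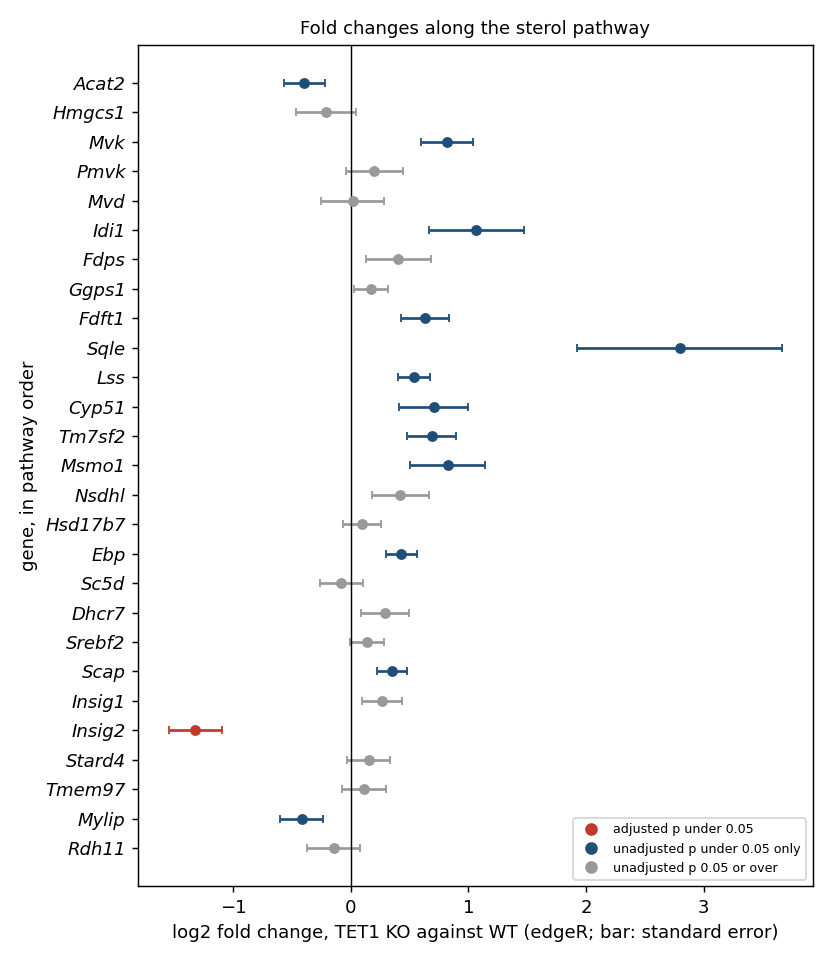
Log2 fold change of each of the 27 genes in TET1 KO against WT liver (horizontal axis, edgeR) in pathway order from top to bottom, with bars for the standard error and colour for the test outcome. Sqle lies farthest to the right at 2.79 with the widest bar, and Insig2, the only gene with an adjusted p under 0.05, lies farthest to the left at -1.32.

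The mevalonate steps gave mixed values, with a median log2 fold change of 0.02 over 5 genes. Acat2, the cytosolic thiolase that makes acetoacetyl-CoA, was at 43.02, 50.8 and 40.7 CPM in WT and 27.2, 38.95, 28.3 and 41.9 CPM in TET1 KO. TET1 KO 1, 2 and 3 lay below every WT liver, but KO 4 was inside the WT range, and the log2 fold change was -0.40 ± 0.18 (SE), with an adjusted p = 0.183. Hmgcs1, the cytosolic HMG-CoA synthase, was at 151, 138 and 125 CPM in WT and 70.9, 181, 102 and 124 CPM in TET1 KO. It had both the lowest and the highest liver in the TET1 KO group, which enclosed the WT range (log2 fold change -0.21 ± 0.25, adjusted p = 0.615), and the value was -0.03 without KO 1 and -0.49 without KO 2. Mvk, mevalonate kinase, was at 5.22, 6.72 and 5.90 CPM in WT and 8.45, 14.7, 8.39 and 10.5 CPM in TET1 KO. All 4 TET1 KO livers were above all 3 WT livers, and KO 2 was the highest (log2 fold change 0.82 ± 0.22, adjusted p = 0.0740). Pmvk and Mvd, which carry out the next phosphorylation and the decarboxylation, had log2 fold changes of 0.20 and 0.02 with overlapping groups, and their adjusted p-values were 0.616 and 0.972 (edgeR). Leaving out 1 mouse moved Pmvk from 0.05 (without WT 1 or KO 4) to 0.35 (without KO 3).

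The isoprenoid steps turn the mevalonate product into prenyl chains. Idi1, which isomerizes isopentenyl diphosphate, was at 5.71, 9.70 and 11.5 CPM in WT and 9.71, 26.8, 10.1 and 28.6 CPM in TET1 KO. KO 2 and KO 4 were far above the highest WT liver, while KO 1 and KO 3 lay within the WT range (log2 fold change 1.07 ± 0.41, adjusted p = 0.135). Fdps, farnesyl diphosphate synthase, was between 27.6 and 41.7 CPM in WT and between 26.7 and 66.7 CPM in TET1 KO, with KO 2 and KO 4 highest (log2 fold change 0.40 ± 0.28, adjusted p = 0.364), and the value was 0.18 without KO 2 and 0.24 without WT 2. Ggps1, which makes the geranylgeranyl chain used for protein prenylation, was at 9.84, 9.66 and 10.8 CPM in WT and 11.5, 12.2, 11.6 and 10.2 CPM in TET1 KO. KO 1, KO 2 and KO 3 were above every WT liver by a small margin and KO 4 was inside the WT range (log2 fold change 0.17 ± 0.14, adjusted p = 0.456). The exons of Ggps1 and Arid4b share 170 bases on opposite strands.

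Squalene formation and closure gave the highest median of any stage, 0.63 over 3 genes. Fdft1, squalene synthase, was at 42.5, 34.6 and 30.9 CPM in WT and 42.01, 73.1, 45.3 and 62.7 CPM in TET1 KO. KO 2, KO 3 and KO 4 were above all WT livers and KO 1 was just below the highest of them (log2 fold change 0.63 ± 0.20, adjusted p = 0.0977). Sqle, squalene epoxidase and a rate-limiting step after the mevalonate stage, was at 0.787, 0.788 and 1.43 CPM in WT and 1.31, 13.7, 0.972 and 11.7 CPM in TET1 KO. In counts this was 16, 19 and 26 in WT and 21, 194, 19 and 253 in TET1 KO. KO 2 and KO 4 stood far above the other 5 livers, and KO 1 and KO 3 were inside the WT range. The fitted log2 fold change was 2.79 ± 0.87 (SE), with an adjusted p = 0.0913, a value that rests on 2 of the 4 TET1 KO livers. Lss, lanosterol synthase, was at 20.9, 19.6 and 18.7 CPM in WT and 29.1, 32.8, 25.3 and 27.2 CPM in TET1 KO. Every TET1 KO liver was above every WT liver and the groups were tight (log2 fold change 0.53 ± 0.14, adjusted p = 0.0641). Fdft1 exons share 769 bases with Ctsb and Lss exons 381 bases with 4930483K19Rik, on opposite strands.

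**Figure D2:**
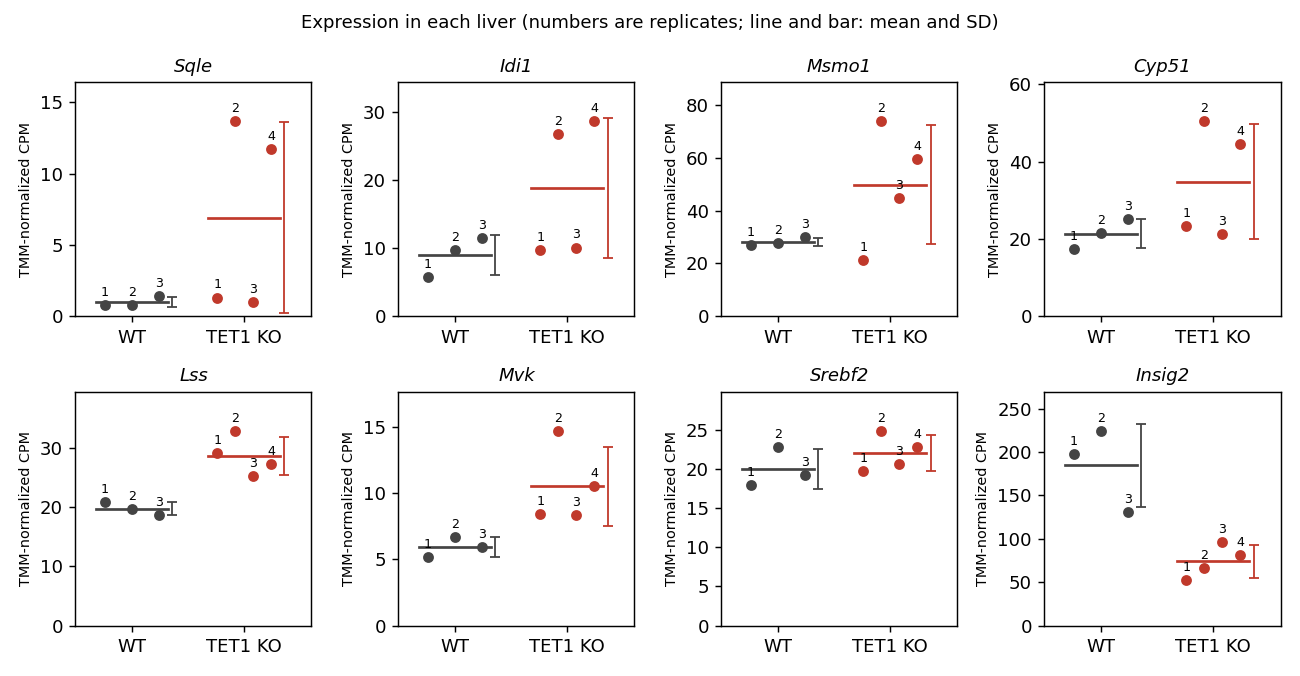
TMM-normalized CPM (vertical axes, from 0) of 8 genes in each WT (grey) and TET1 KO (red) liver, numbered by replicate, with a line at the mean and a bar for the SD. Sqle, Idi1, Msmo1 and Cyp51 are highest in TET1 KO 2 and 4, whereas Lss, Mvk and Insig2 separate all 4 TET1 KO livers from the 3 WT livers.

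After lanosterol, 7 of 8 genes had a positive fold change, with a median of 0.43. Cyp51, the lanosterol 14-demethylase, was at 17.5, 21.5 and 25.1 CPM in WT and 23.3, 50.4, 21.2 and 44.5 CPM in TET1 KO. KO 2 and KO 4 were above all others and KO 1 and KO 3 lay inside the WT range (log2 fold change 0.71 ± 0.29, adjusted p = 0.161), and without KO 2 the value was 0.46. Tm7sf2, a sterol 14-reductase, was at 26.7, 27.5 and 26.99 CPM in WT and 27.3, 49.9, 42.7 and 54.4 CPM in TET1 KO. The WT livers lay close together, KO 1 was inside their range, and the other three were well above it (log2 fold change 0.69 ± 0.21, adjusted p = 0.0853). Tm7sf2 exons share 532 bases with 1110014N23Rik on the same strand, and reads there could be split or dropped. Msmo1, the C4-methylsterol oxidase, was at 26.9, 27.6 and 29.97 CPM in WT and 21.2, 73.8, 44.8 and 59.5 CPM in TET1 KO. KO 1 was the lowest of the 7 livers and the other TET1 KO livers were the 3 highest (log2 fold change 0.82 ± 0.32, adjusted p = 0.141). Without KO 1, edgeR called both Tm7sf2 (0.86, adjusted p = 0.0166) and Msmo1 (1.08, adjusted p = 0.0232).

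Ebp, the sterol isomerase, was at 164, 160.4 and 187 CPM in WT and 223, 250.1, 212 and 233 CPM in TET1 KO. All TET1 KO livers were above all WT livers, at a fold of 1.35 (log2 fold change 0.43 ± 0.13, adjusted p = 0.0853). Dhcr7, the 7-dehydrocholesterol reductase, was at 20.6, 22.7 and 26.5 CPM in WT and 23.04, 36.3, 20.7 and 33.9 CPM in TET1 KO. KO 2 and KO 4 were above every WT liver and KO 1 and KO 3 were not (log2 fold change 0.29 ± 0.21, adjusted p = 0.380). Nsdhl, which acts with Msmo1 in removing the C4 methyl groups, was between 13.3 and 16.8 CPM in WT and reached 29.2 CPM in KO 2 and 23.5 CPM in KO 4 (log2 fold change 0.42 ± 0.24, adjusted p = 0.284). Without KO 2 the log2 fold changes were 0.14 for Dhcr7 and 0.19 for Nsdhl. Hsd17b7, which completes that removal, and Sc5d, the lathosterol oxidase, had log2 fold changes of 0.09 and -0.08, and their groups overlapped.

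Gene levels differ widely along the pathway, and they can be compared only per length of exon. Per kilobase of exon (GENCODE M1, 26 genes with a length, Hmgcs1 without one), the WT mean was highest for Sc5d at 148 CPM per kb, followed by Insig1 at 76.8 and Ebp at 73.7. Sqle was lowest at 0.181 CPM per kb in WT and 1.25 in TET1 KO. Mvk, Mylip and Lss were also low in WT, at 2.22, 2.28 and 1.83 CPM per kb. The length used is the union of all annotated exons of a gene. For Lss it was 10787 bases, the longest among these genes, so its value per kilobase may be too low.

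For 12 of the 19 enzymes, the 2 highest livers were KO 2 and KO 4. This pattern was chosen after the values had been seen, so it is given as counts without a test. KO 2 had the highest value of the 7 livers for 15 of the 27 genes and KO 4 for 7, while KO 1 and KO 3 had the highest value for 1 each. Over all tested genes, the highest liver was KO 1 for 25.6%, KO 2 for 11.7%, KO 3 for 10.2% and KO 4 for 8.15%. KO 2 and KO 4 were together the 2 highest livers for 14 of 27 genes (51.9%) and 12 of 19 enzymes (63.2%), compared with 3.86% of all tested genes. KO 2 exceeded every WT liver for 17 of the 19 enzymes and KO 4 for 14, against 7 for KO 3 and 4 for KO 1. Over all tested genes, the share above every WT liver was 32.5% in KO 2, 27.1% in KO 4, 34% in KO 3 and 37.7% in KO 1. The median log2 difference of the enzymes from the WT mean was 0.73 in KO 2 and 0.58 in KO 4, and 0.01 in both KO 1 and KO 3. Genes of 1 pathway under 1 factor are not independent, and these counts describe 4 mice.

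**Figure D3:**
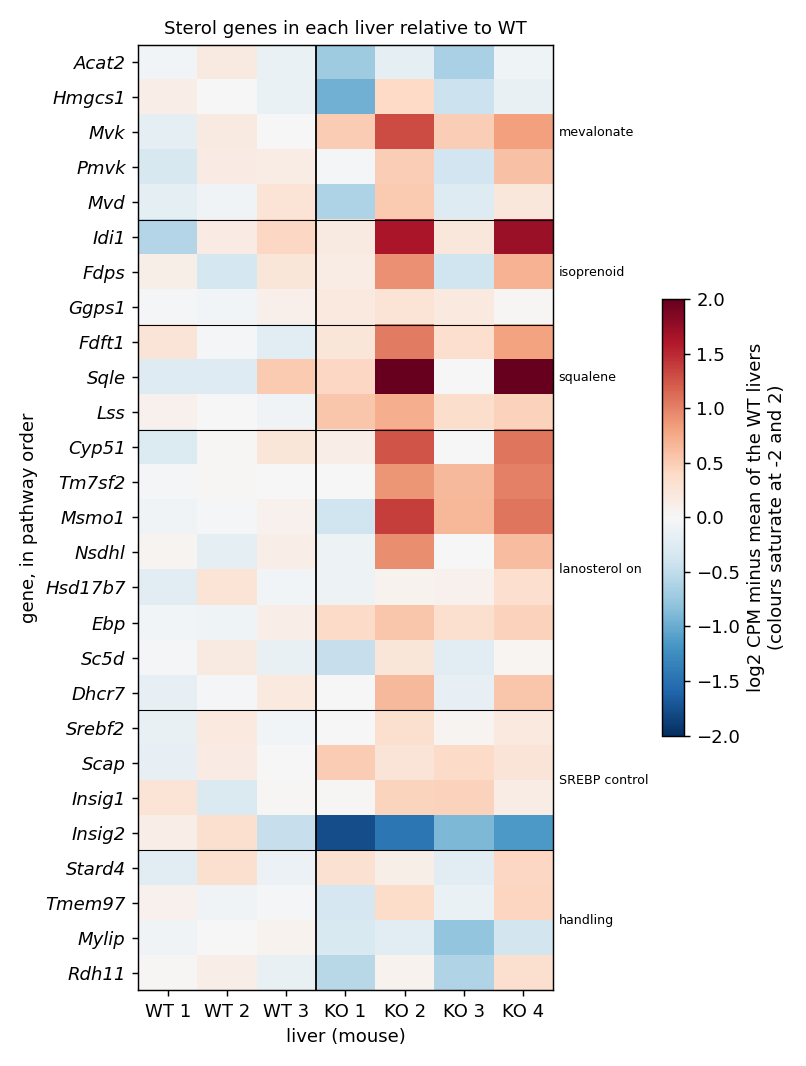
Log2 CPM of each gene in each liver minus the mean of the 3 WT livers (red higher, blue lower, colours saturating at -2 and 2), with genes in pathway order and WT livers to the left of the vertical line. The red columns are TET1 KO 2 and 4, with median enzyme differences of 0.73 and 0.58, and Insig2 is blue in all 4 TET1 KO livers.

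The spread within TET1 KO was wider than within WT for these genes. The median SD of log2 CPM over the 19 enzymes was 0.44 in TET1 KO and 0.18 in WT, beside 0.25 and 0.23 over all tested genes. The TET1 KO SD was the larger one for 17 of 19 enzymes (89.5%), for 3 of the 8 control and handling genes (37.5%) and for 54.3% of all tested genes. Sqle had the widest range in TET1 KO, with the highest liver at 14.1 times the lowest, followed by Msmo1 at 3.48 times and Idi1 at 2.94 times. Ebp, Scap and Ggps1 had the narrowest, at 1.18, 1.19 and 1.19 times.

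Markers of other cell types were read beside this pattern. Summed cholangiocyte markers (Krt7, Krt19, Epcam, Sox9 and Spp1) were between 29.7 and 37.8 CPM in WT and at 46.1, 68.0, 50.5 and 62.9 CPM in TET1 KO, so KO 2 and KO 4 had the highest sums. Spp1 made up most of each sum, at 30.7, 43.7, 32.3 and 39.2 CPM in TET1 KO. Krt7 (0.877, 1.41, 0.767 and 2.69 CPM) and Epcam (0.689, 0.986, 0.818 and 4.87 CPM) were also highest in KO 2 and KO 4 among all 7 livers. Sox9 and Krt19 did not share that order, since Sox9 was lowest among the TET1 KO livers in KO 4 (9.46 CPM) and Krt19 was lowest among them in KO 2 (1.06 CPM), inside the WT range. All 5 were detected in every liver, 4 of the 5 had an unadjusted p under 0.05 for higher levels in TET1 KO, and none was called by edgeR after adjustment, while DESeq2 called 2, Epcam and Sox9, higher. Summed adipocyte markers (Adipoq, Lep, Cfd and Plin1) were at 18.2 CPM in KO 2 and between 0.186 and 3.25 CPM in the other 6 livers. Adipoq was at 4.23 CPM in KO 2 and at 0 in KO 4. Summed Kupffer cell and macrophage markers were between 202 and 329 CPM in WT and at 153, 252, 175 and 331 CPM in TET1 KO, and summed erythroid markers were between 777 and 870.2 CPM in WT and at 219, 488, 427 and 1113 CPM in TET1 KO. In both of these lists, KO 2 and KO 4 were again the 2 highest of the TET1 KO livers. Summed neutrophil markers had that order too, at 1.31, 8.17, 1.99 and 6.08 CPM in TET1 KO with WT between 2.03 and 31.1 CPM, and summed B cell markers were highest in KO 2, at 27.7 CPM against 7.54 to 15.2 CPM in the other 6 livers. Summed stellate cell and fibroblast markers had the reverse order, at 281, 231, 260 and 206 CPM in TET1 KO with WT between 219 and 366 CPM. There, KO 2 and KO 4 were the 2 lowest of the TET1 KO livers. Summed endothelial markers had neither order, at 133, 141, 118 and 126 CPM in TET1 KO with WT between 143 and 145 CPM. Hepatocyte markers, 7 genes summed, were between 66442 and 87313 CPM in WT and between 78224 and 88299.5 CPM in TET1 KO. The part of RNA from any of these cell types in the enzyme values was not tested.

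Among the control genes, Insig2 fell in TET1 KO. Insig2 (chr1:121304353-121332662, GRCm38.p6) was at 198, 225 and 131 CPM in WT and 52.4, 66.3, 96.2 and 80.8 CPM in TET1 KO. Every TET1 KO liver was below every WT liver, and the highest TET1 KO liver was at 96.2 CPM against the lowest WT liver at 131 CPM. The mean was 184 ± 48.2 CPM (SD, n = 3) in WT and 73.9 ± 18.8 CPM (SD, n = 4) in TET1 KO, and the gene fell by 1.32 ± 0.22 (SE) on the log2 scale (adjusted p = 0.0196, edgeR). It fell by 1.16 without WT 2 and by 1.29 without KO 2, the fits in which the call was lost. The call held in the other leave-one-out fits and under the other scalings, filters, DESeq2 and the replicate block. Insig2 is transcribed in mouse liver from alternative first exons, of which one is used mainly in liver, and counts per gene do not separate the start sites whose upstream windows are printed above.

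Insig1, itself a classic SREBP target, was at 241, 164 and 204 CPM in WT and 203, 273, 278 and 223 CPM in TET1 KO. The groups overlapped, with KO 2 and KO 3 above every WT liver (log2 fold change 0.27 ± 0.17, adjusted p = 0.341), and the value was 0.40 without WT 1 and 0.12 without WT 2. Per kilobase of exon, the WT means of Insig1 and Insig2 were 76.8 and 53.1 CPM per kb, and in TET1 KO they were 92.3 and 21.3. Scap, the escort that both INSIG proteins bind, was at 45.5, 56.7 and 50.9 CPM in WT and 72.1, 60.9, 66.6 and 60.8 CPM in TET1 KO. All TET1 KO livers were above all WT livers, with KO 1 highest (log2 fold change 0.35 ± 0.13, adjusted p = 0.127). Scap exons share 985 bases with 5830462I19Rik on the opposite strand. Srebf2, the transcription factor of the pathway, was at 17.96, 22.8 and 19.2 CPM in WT and 19.7, 24.9, 20.6 and 22.8 CPM in TET1 KO. The groups overlapped and the difference was within the spread between mice (log2 fold change 0.14 ± 0.14, adjusted p = 0.559), with values from 0.0548 without WT 1 to 0.24 without WT 2. SREBP2 acts after proteolytic release, which mRNA does not measure.

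The last 4 genes handle sterols, lipoproteins or retinol, and their median log2 fold change was -0.01. Mylip, the ubiquitin ligase IDOL that sends lipoprotein receptors to the lysosome and is induced by LXR, was at 6.64, 6.92 and 7.34 CPM in WT and 5.64, 5.92, 3.99 and 5.38 CPM in TET1 KO. Every TET1 KO liver was below every WT liver, by a small step (log2 fold change -0.42 ± 0.18, adjusted p = 0.180). Stard4, a sterol carrier of the cytosol, was at 39.2, 57.1 and 42.2 CPM in WT and 55.98, 49.5, 39.3 and 60.4 CPM in TET1 KO. The groups overlapped (log2 fold change 0.15 ± 0.18, adjusted p = 0.609), with values from 0.0354 without WT 1 to 0.33 without WT 2. Tmem97, a sterol-binding membrane protein, and Rdh11, a retinol dehydrogenase that SREBP regulates, had log2 fold changes of 0.12 and -0.14 with overlapping groups, and Rdh11 was at -0.03 without KO 1 or KO 3 and at -0.34 without KO 4.

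Other genes of the system were taken from lists, and 10 of them were called in all, 4 higher and 6 lower. Over all tested genes, edgeR called 0.874% higher and 1.15% lower, and DESeq2 called 4.27% and 4.75%. At an unadjusted p under 0.05 (edgeR) the shares were 13.6% and 12.7%. The groups did not overlap for 11.7% and 10.8%. These shares are the background for each list below. Among 16 genes of SREBP processing, edgeR called 2, both lower, while 1 was higher and 4 lower at an unadjusted p under 0.05. DESeq2 called Sec23a and Sec24d lower and 1 gene higher, Aup1, which is named here after its value was seen. Sec23a, a coat protein of the vesicles that leave the endoplasmic reticulum, was at 61.2, 84.03 and 66.7 CPM in WT and 46.3, 46.5, 42.5 and 46.8 CPM in TET1 KO (log2 fold change -0.63 ± 0.14, adjusted p = 0.0432). Sec24d, the cargo-binding partner in the same coat, was at 54.4, 63.2 and 52.5 CPM in WT and 23.7, 34.4, 36.6 and 36.1 CPM in TET1 KO (log2 fold change -0.79 ± 0.16, adjusted p = 0.0385). All TET1 KO livers were below all WT livers for both. The call of Sec23a was lost without WT 2, WT 3, KO 1, KO 2 or KO 3 (adjusted p up to 0.170), and that of Sec24d without WT 1, WT 2, WT 3, KO 2 or KO 3 (up to 0.186).

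Of 17 tested among 18 further sterol and isoprenoid genes, none was called by edgeR at an adjusted p under 0.05, while 2 were higher and 2 lower at an unadjusted p under 0.05 and DESeq2 called 1, Rabggta, higher. The smallest p-values were those of Rabggta, a subunit of the Rab prenyltransferase (log2 fold change 0.61, adjusted p = 0.0652), and Nus1, which takes part in dolichol synthesis (-0.46, adjusted p = 0.0962). Of 18 genes of cholesterol esterification and transport, only Lipa was called by edgeR, while 2 were higher and 2 lower at an unadjusted p under 0.05. DESeq2 called 1 higher, Npc1, and 2 lower, Lipa and Nceh1, where Npc1 and Nceh1 are named after their values were seen. Lipa, the lysosomal acid lipase that frees cholesterol from its esters, was at 151, 211 and 143 CPM in WT and 71.9, 89.3, 80.1 and 109 CPM in TET1 KO. Every TET1 KO liver was below every WT liver (log2 fold change -0.95 ± 0.18, adjusted p = 0.0280), and the call was lost without WT 2 (adjusted p = 0.142), KO 1 (0.0506), KO 2 (0.0713) or KO 3 (0.0945). None of 10 LXR targets was called by edgeR, while 3 were lower at an unadjusted p under 0.05 and DESeq2 called 1, Smpdl3a. The smallest p-values were those of Smpdl3a, a secreted lipid phosphodiesterase (-0.73, adjusted p = 0.0739) and Abca1, the cholesterol exporter (-0.40, adjusted p = 0.126).

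The fatty acid genes driven by SREBP1, the sister factor that shares SCAP and INSIG, were read in the same livers. Of 14 tested, 3 were called lower and none higher by both edgeR and DESeq2, with 6 lower and 1 higher at an unadjusted p under 0.05 and a median log2 fold change of -0.78. Elovl5, a fatty acid elongase, was at 530.1, 765 and 334 CPM in WT and 115, 153, 105 and 235 CPM in TET1 KO (log2 fold change -1.84 ± 0.31, adjusted p = 0.0196). Me1, the malic enzyme that supplies NADPH, was at 148, 259.7 and 105 CPM in WT and 35.2, 13.8, 16.3 and 58.9 CPM in TET1 KO (log2 fold change -2.46 ± 0.46, adjusted p = 0.0271). Gpam, which starts triglyceride assembly, was at 23.8, 74.7 and 25.8 CPM in WT and 11.7, 14.9, 15.9 and 12.4 CPM in TET1 KO (log2 fold change -1.60 ± 0.34, adjusted p = 0.0440). All TET1 KO livers lay below all WT livers for these 3 genes. WT 2 was the highest liver for each, and without it none was called (adjusted p = 0.107, 0.149 and 0.0897), with the log2 fold change of Gpam at -0.86. Leaving out KO 2 or KO 3 also ended all 3 calls, leaving out KO 1 ended those of Me1 and Gpam, and robust dispersions ended those of Me1 (adjusted p = 0.0765) and Gpam (0.0727).

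Srebf1, which encodes SREBP1, was at 344, 383 and 271 CPM in WT and 539, 319, 379 and 239 CPM in TET1 KO. Fasn, fatty acid synthase, was at 455, 625 and 385 CPM in WT and 861, 248, 282 and 330.4 CPM in TET1 KO. KO 1 was the highest of the 7 livers for both genes, although the median of its sterol enzymes lay at the WT level, and KO 2 had the lowest Fasn while its sterol enzymes were highest. Neither gene was called (log2 fold changes 0.15 and -0.18, adjusted p = 0.716 and 0.784), and both changed sign in a leave-one-out fit, Srebf1 without KO 1 (-0.09) and Fasn without WT 2 (0.03). Acss2, acetyl-CoA synthetase and a target of both factors, had a log2 fold change of -0.16 (adjusted p = 0.636), which became 0.08 without WT 2. The median difference of the 14 genes from the WT mean was -0.09, 0.54 and -0.33 in WT 1 to 3 and -0.61, -1.19, -1.27 and -0.45 in KO 1 to 4. WT 1 and WT 3 were thus also below 0, and WT 3 was close to KO 4. The difference between these genes and the sterol enzymes was not tested.

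**Figure D4:**
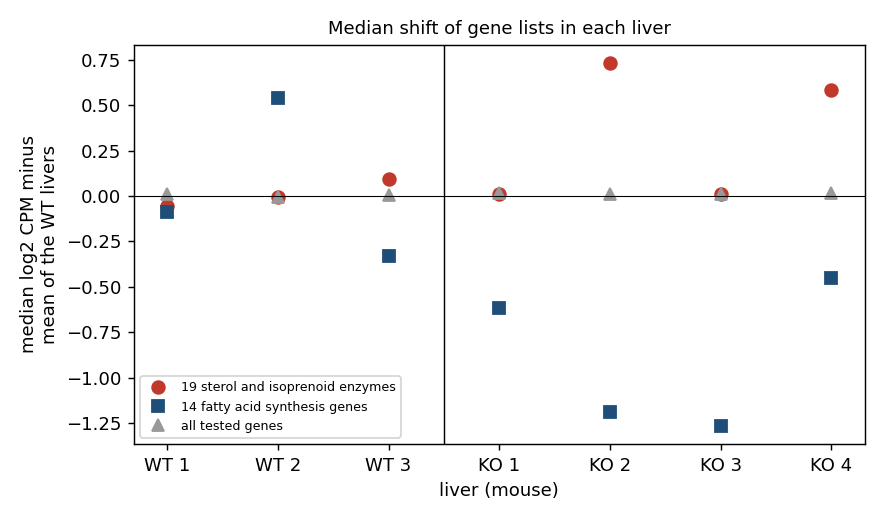
Median over genes of log2 CPM minus the mean of the 3 WT livers (vertical axis) in each liver, for the 19 sterol and isoprenoid enzymes (circles), 14 fatty acid synthesis genes (squares) and all tested genes (triangles). The enzymes stand at 0.73 and 0.58 in TET1 KO 2 and 4 and at 0.01 in KO 1 and 3, while the fatty acid genes are at -0.09, 0.54 and -0.33 in the WT livers and from -1.27 to -0.45 in the TET1 KO livers.

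Sterol synthesis in liver follows the daily clock and feeding, and the time of day at which livers were taken is not given in the sources used here. Of 14 clock output genes tested, 4 were called higher and none lower by edgeR, 7 and none by DESeq2, and 7 and none at an unadjusted p under 0.05. Per3, a clock repressor, was at 30.3, 25.3 and 23.6 CPM in WT and 67.1, 61.1, 51.4 and 49.7 CPM in TET1 KO (log2 fold change 1.12 ± 0.15, adjusted p = 0.00820), and the call was lost without WT 2 (adjusted p = 0.0604). Dbp, Tef and Bhlhe41, transcription factors of the clock, had log2 fold changes of 0.91, 0.79 and 1.58 (adjusted p = 0.0437, 0.0224 and 0.0437). All TET1 KO livers were above all WT livers for these 4 genes. The calls of Dbp, Tef and Bhlhe41 were lost without WT 2 (adjusted p = 0.224, 0.104 and 0.206), WT 3, KO 2 or KO 3. Leaving out KO 1 also ended those of Dbp and Bhlhe41, leaving out WT 1 that of Bhlhe41, and library sizes alone that of Dbp (0.0543). The median difference from the WT mean over the 14 genes was 0.59, 0.28, 0.35 and 0.39 in KO 1 to 4. Genes of this list did not move together between livers, as Per2 and Nr1d1 show, both named after their values were seen. In KO 1 to 4, Per2 was at 110, 47.2, 84.4 and 76.7 CPM, and Nr1d1 was at 61.6, 146, 116 and 95.1 CPM. A median over such genes cannot show whether a liver stood apart. The part of sampling time in the sterol values was not tested.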

How the data were processed

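Liver RNA of 3 WT and 4 TET1 KO mice was sequenced from stranded libraries, made from poly(A)-selected or rRNA-depleted RNA per the labels. The authors deposited 1 table of raw read counts per mouse, not normalized. The submitters' processing notes name Trimmomatic 0.36, GSNAP, featureCounts 1.5.3 and GRCm38. The strand setting and annotation release are not given in the sources used here, so genes with overlapping exons remain uncertain.

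Tables were joined by Ensembl identifier, leaving out 5 repeated entries. After filterByExpr (14754 genes) and TMM scaling, the genotypes were compared with edgeR 4.0.16 (R 4.3.3) by its quasi-likelihood test, fitted without covariates (legacy = FALSE and robust = FALSE in glmQLFit), with Benjamini-Hochberg adjustment over all tested genes, called under 0.05. The steps were tested on simulated data. Log2 CPM used a prior count of 2. DESeq2 1.42.0, other scalings and filters, robust dispersions, a replicate block and leaving out each mouse were alternatives. Nothing in the labels ties same-numbered mice together. P-values measure the spread between these mice. Coordinates and promoters are RefSeq GRCm38.p6, exon lengths and overlaps GENCODE M1.

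The genes and lists were chosen with earlier results of these data known. Values per mouse are given for every gene with an unadjusted p under 0.05 or groups that did not overlap, and for Hmgcs1, Idi1, Sqle, Lss, Cyp51, Dhcr7, Srebf2, Scap, Insig1, Insig2, Stard4, Ggps1 and Mylip. Of the further lists, called genes are named, or the 2 with the smallest p where none was called, and Srebf1, Fasn and Acss2 in any case.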

Additional observations from a re-analysis of the deposited data

Results flagged for a closer look

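Among the 4 TET1 KO livers, each of the 27 genes and 11 summed marker lists was examined for a liver far from the others, by the gap to its nearest neighbour over the range of the group against Dixon's 95% critical value, on the log2 scale and on the CPM scale. Of these 38, the summed markers of T and NK cells (Cd3e, Cd3d, Cd8a, Nkg7 and Trac) passed on both scales, with ratios of 0.896 (log2) and 0.922 (CPM) and KO 2 at 4.51 CPM against 2.40 to 2.57 CPM in the other TET1 KO livers and 1.58 to 3.15 CPM in WT. The summed adipocyte markers passed on the CPM scale (0.976), with KO 2 at 18.2 CPM against 0.186 to 0.614 CPM in the other TET1 KO livers, but not on the log2 scale (0.780). Chance flags about 1 in 20 such groups. The ratio cannot single out a gene in which 2 livers are high together, as in Sqle (0.109 on the log2 scale) and Idi1 (0.0607), so it says nothing about the high values shared by KO 2 and KO 4. The part of these cells in the sterol values of KO 2 was not tested.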

How the results depend on the processing

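Of the 27 genes, 0 were called higher by edgeR, 4 by DESeq2, 0 to 2 when a mouse was left out and 10 at an unadjusted p under 0.05. Insig2 alone was called lower, with 3 genes at an unadjusted p under 0.05 and 0 to 1 when a mouse was left out. The median log2 fold change of the 27 genes stayed between 0.15 (without KO 2) and 0.33 under the 14 alternatives, and that of the 19 enzymes between 0.19 (without KO 2) and 0.53. The replicate block moved these values by over 1.5 times: Idi1 to 0.69, Hmgcs1 to -0.33, Pmvk to 0.0307, Fdps to 0.22, Cyp51 to 0.47, Nsdhl to 0.28, Dhcr7 to 0.16, Hsd17b7 to 0.0208, Sc5d to -0.14, Stard4 to 0.0686 and Rdh11 to -0.36. Library sizes alone also moved values by over 1.5 times. Ggps1 went to 0.0770, Srebf2 to 0.0418, Pmvk to 0.11 and Insig1 to 0.17. Stard4 went to 0.0609, Tmem97 to 0.0242, Sc5d to -0.18 and Rdh11 to -0.23. Over all tested genes, 129 were called higher and 169 lower. DESeq2 called 628 and 698, no filter on low counts gave 245 and 347, library sizes alone gave 107 and 312, and leaving out a mouse gave 16 to 427 and 21 to 464. Library sizes alone moved the share of higher calls from 43.3% to 25.5% and the median of all tested genes from 0.01 to -0.08. Of the further lists, 4 were called higher and 6 lower, against 10 higher by DESeq2, and 0 to 8 higher and 0 to 10 lower when a mouse was left out. The replicate block gave 671 higher and 656 lower over all genes, 10 higher of the further lists, and no other call among the 27 genes. The numbers do not pair the mice, since correlations of same-numbered deviations were between -0.12 and 0.21.

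Values near 0 changed sign. Mvd was at -0.0045 with DESeq2, -0.0735 with library sizes alone, -0.0070 without the filter, -0.11 with the block and -0.20 to 0.18 when a mouse was left out. Hsd17b7 was at -0.00093 with library sizes alone and -0.0212 to 0.24 when a mouse was left out, and Tmem97 was at -0.0332 with the block and -0.00527 to 0.24. Leaving out a mouse gave -0.22 to 0.0334 for Sc5d, -0.0872 to 0.31 for Srebf1, -0.77 to 0.0256 for Fasn and -0.30 to 0.0821 for Acss2. The cause was not tested. With the replicate block, the log2 fold change of Sqle was 1.62 (adjusted p = 0.230) in place of 2.79, and with robust dispersions its adjusted p was 0.169. Counts of Sqle were 16 to 26 in WT and 19 to 253 in TET1 KO.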
